A study of Homo sapiens with 24 samples.

Results

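The genes described here are the host genes of small nucleolar RNAs (snoRNAs) that make no known protein: long transcripts whose introns carry snoRNAs, together with others that carry the same SNHG name. They were taken from the count table by symbol, as SNHG followed by a number or as GAS5, DANCR, ZFAS1 or EPB41L4A-AS1, with at least 240 raw counts over all libraries. Of 59251 rows in the table, 32 had such a symbol and 29 reached the minimum. The members nearest to it were SNHG25 with 247 counts and SNHG28 with 553, and the symbols left outside were SNHG22 with 130, SNHG27 with 6 and SNHG18 with 1. All 29 members also passed the filter on low counts that left 20820 genes for testing, and SNHG25 was the member with the fewest libraries holding a count, 19 of 24.

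Poly(A)-selected RNA was measured in MCF10A cells, an established, non-tumorigenic human breast epithelial line. PE is labelled as the derivative without transformation and PM as the one transformed by MYC. PE and PM each carried a hairpin against GFP as the control, hairpin A against CHD1 or hairpin B against CHD1. CHD1 is an ATP-dependent chromatin remodeller that binds histone H3 methylated at lysine 4. Cells of all 6 groups received doxycycline at 50 ng/ml for 72 h, the control hairpin included. The labels give neither the number of clones behind a line nor the promoter that drives MYC. Each group held 4 libraries, called biological replicates without word of how the cultures were kept apart. The p-values therefore measure only how far such libraries scatter, which may be technical in part. The series is titled for CHD1 as a weak point of breast cancers driven by MYC.

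As background, snoRNAs guide the chemical modification and processing of ribosomal RNA and of other small RNAs. Box C/D snoRNAs guide 2′-O-methylation with fibrillarin, box H/ACA snoRNAs guide pseudouridylation with dyskerin, and small Cajal body RNAs (scaRNAs) do the same for spliceosomal RNAs. In human cells most are cut from introns after splicing, and the spliced exons of a non-coding host are often short-lived, because ribosomes that engage them expose them to nonsense-mediated decay. Many hosts start with a run of pyrimidines, the terminal oligopyrimidine motif known from ribosomal protein genes, and several are known targets of MYC. Among the members, GAS5 was named for its rise in growth-arrested cells, and SNHG14 is the long imprinted transcript of the Prader-Willi region that runs antisense to UBE3A.

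The RefSeq annotation of GRCh38.p14 placed 145 snoRNA or scaRNA genes inside 28 of the 29 members, 120 of them box C/D, 22 box H/ACA and 3 scaRNAs. The members fell into 12 hosts of box C/D RNAs, 11 hosts of box H/ACA RNAs, 2 hosts of both kinds (GAS5 and SNHG12) and 3 hosts of a scaRNA (SNHG10, SNHG20 and SNHG21). For SNHG28 none was annotated inside, so its place among host genes rests on its name. SNHG14 held 83 of the 145 genes, GAS5 11 and SNHG1 8. The transcribed start was compared across the 25 members with an entry in the RefSeq promoter table of the same build. A run of at least 5 pyrimidines (C or T) that opens with C began exactly at the annotated start in 6 of 25 members, 24.0%, against 4.04% of 27303 promoters and 3.27% of the 11462 promoters of long non-coding genes among them. Within 10 bases of the start on either side, read on the transcribed strand, such a run was present in 16 of 25 members, 64.0%, against 33.3% of all promoters. The motif CACGTG, which is bound by MYC and by other factors and reads the same on both strands, lay within 250 bases before to 50 bases after the start in SNHG7 and SNHG30, 8.0% of the members, against 7.44% of all promoters. Annotated starts can be off by some bases, and a match of letters is a description, not a site in use. For ZFAS1 and SNHG12 the promoter start, at chr20:49278642 and chr1:28581873, lies inside the annotated gene. Their genes open at chr20:49278178 and chr1:28582983. Whether these 2 count among the 6 therefore depends on which start is taken.

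The first 30 bases from the promoter start of these 6 members are printed below, with the run in capitals. Beside them stand the 3 members that were lower under both CHD1 hairpins in both lines. In these no such run begins exactly at the annotated start. In SNHG8 a run of 6 opens at position -5 from the start, outside most of the stretch printed. As the 6 were picked for the run, the contrast is a display and no result.
SNHG32 (chr6:31834916-31834945, plus strand): CTTTTTgcgaagtgggctcgtgggttggca
SNHG5 (chr6:85678704-85678733, minus strand): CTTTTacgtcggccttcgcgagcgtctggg
ZFAS1 (chr20:49278642-49278671, plus strand): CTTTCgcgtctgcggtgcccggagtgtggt
SNHG19 (chr16:2155329-2155358, minus strand): CTTTTCggggtcgagtccgagggggaagag
SNHG4 (chr5:139274101-139274130, plus strand): CCCTTTCCCCTCCggcctctgccggtgctg
SNHG12 (chr1:28581844-28581873, minus strand): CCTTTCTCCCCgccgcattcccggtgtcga
SNHG1 (chr11:62855856-62855885, minus strand): ctcatttttctactgctcgtggtaagtggc
SNHG3 (chr1:28505943-28505972, plus strand): gattctctaactgcgcatgcttctgcgcac
SNHG8 (chr4:118278762-118278791, plus strand): cacattcgggaagcgtcgggattaggtgaa

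Library totals ran from 4.14 to 93.3 M counts with a median of 49.5 M. Levels are given in CPM, the counts scaled to the library total after TMM normalisation, a log2 change compares 2 groups of 4 libraries, and the value after ± is its standard error unless SD is stated. CHD1 was at 22.2 to 34.3 CPM in the 16 libraries of CHD1 hairpins and at 74.2 to 95.3 CPM in the 8 libraries of the GFP hairpin, and MYC averaged 518 ± 27.4 CPM (SD, n = 4) in PM against 275 ± 17.7 CPM (SD, n = 4) in PE with the GFP hairpin. The epithelial keratins KRT5, KRT8 and KRT18 were abundant in all groups, whereas KRT19 and TP63 reached at most 1.35 CPM in any library and the group means of CDH1, which encodes E-cadherin, ran from 0.309 to 26.8 CPM. CD3E, CDH5, VWF and LYZ reached at most 0.472 CPM, whereas other markers of fibroblasts, endothelium and leukocytes were present, DCN at up to 55.1 CPM in a library, CD14 at up to 34.3, COL1A1 at up to 17.4, PECAM1 at up to 12.1 and LUM at up to 10.1. Of 9 epithelial markers tested, hairpin B in PE gave 6 lower and 2 higher, against 13.2% and 13.6% of all genes. For hairpin B in PM the calls were 2 lower and 1 higher (14.4% and 13.6% of all genes). Hairpin A gave 3 lower and 2 higher in PE (9.33% and 10.9%), and 2 on each side in PM (14.3% and 13.4%). The 10 epithelial markers on the list summed to 1577 to 2317 CPM with the GFP hairpin in PE. With hairpin B there the sum ran from 1248 to 1717 CPM. In PM it showed no such step, at 1712 to 2274 CPM with the GFP hairpin and 1961.5 to 2176 CPM with hairpin B. The 14 markers of fibroblasts, endothelium and leukocytes summed to 78.9 to 92.0 CPM with the GFP hairpin in PE, 49.5 to 64.7 CPM with hairpin B in PE, 29.8 to 54.7 CPM with the GFP hairpin in PM and 47.5 to 77.6 CPM with hairpin B in PM. Replicate 1 of the GFP hairpin in PE had the lowest total and the fewest genes detected, 18380. Replicate 4 of hairpin A and replicate 3 of hairpin B in PM had 19514 and 33137 genes detected, against 21732 to 24764 in the other 21 libraries.

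The members together made up 1705 ± 108 CPM (SD, n = 4) in the controls of PE, 1636 ± 36.3 for hairpin A and 1390 ± 71.3 for hairpin B. In PM the sum was 1967 ± 89.3 CPM in the controls, 1753 ± 30.4 for hairpin A and 1552 ± 152 for hairpin B. The 4 libraries of hairpin B in PE, at 1323 to 1452 CPM, all lay below the 4 controls at 1592 to 1818. In PM all 8 libraries of CHD1 hairpins lay below the 4 controls at 1847 to 2050, with replicate 4 of hairpin A nearest to them at 1789 and replicate 4 of hairpin B next at 1775. The share of counts from the mitochondrial ribosomal RNA genes moved with these groups: in PE it was 0.272 to 0.439% in the controls, 0.374 to 0.440% for hairpin A and 0.429 to 0.586% for hairpin B, and 0.216 to 0.341%, 0.415 to 0.567% and 0.424 to 0.488% in PM. The part of this share and of the marker levels in the members' changes was not tested. In RNA from whole cultures, fewer cells that make a transcript and less of it per cell cannot be told apart.

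The question put to each line was which hosts changed when CHD1 was knocked down. With hairpin A in PE, 6 of 29 members passed the threshold of an adjusted p of 0.05 (edgeR's quasi-likelihood test, adjusted over all genes by Benjamini and Hochberg), 2 higher and 4 lower, against 20.2% of all genes in either direction, 10.9% higher and 9.33% lower. With library sizes alone in place of TMM the split was 0 higher and 9 lower, and 3 members passed once replicate 2 of the PE controls was left out. With hairpin B in PE 13 members passed, 1 higher and 12 lower, against 26.8% of all genes, 13.6% higher and 13.2% lower. With hairpin A in PM 9 members passed, 2 higher and 7 lower, against 27.8% of all genes, 13.4% higher and 14.3% lower. With hairpin B in PM 11 passed, 1 higher and 10 lower, against 28.1% of all genes, 13.6% higher and 14.4% lower. The members' median log2 change was -0.12, -0.28, -0.09 and -0.25 in these 4 comparisons, and that of all tested genes lay between -0.01 and 0.01. The libraries lay wholly apart from the controls in 7, 9, 9 and 12 members, against 21.2%, 25.2%, 29.1% and 28.9% of all genes. A share of members near that of all genes, as with hairpin A in PE and PM, is no result about the members.

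Lower under both CHD1 hairpins were 3 members in PE, SNHG3, SNHG1 and SNHG8, where 5.58% of all genes were, and 7 members in PM, these 3 with SNHG6, SNHG26, SNHG29 and ZFAS1, where 6.89% of all genes were. In PE the count was 5 by DESeq2's Wald test and 8 with library sizes alone. Higher under both hairpins were 0 members in either line by edgeR and by DESeq2's test, against 6.75% of all genes in PE and 6.46% in PM. At an unadjusted p under 0.05 the count was 0 in PE and 1 in PM, and the share of all genes at that threshold was not counted. The count of 0 in PE depends on a control library: without replicate 4 of the PE controls, SNHG15 passed as higher under both hairpins. Both hairpins of a line were compared with the same 4 control libraries. SNHG16 passed in opposite directions in PM, as 1.35% of all genes did, and in PE 0 members did, against 0.447% of all genes.

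**Figure D1:**
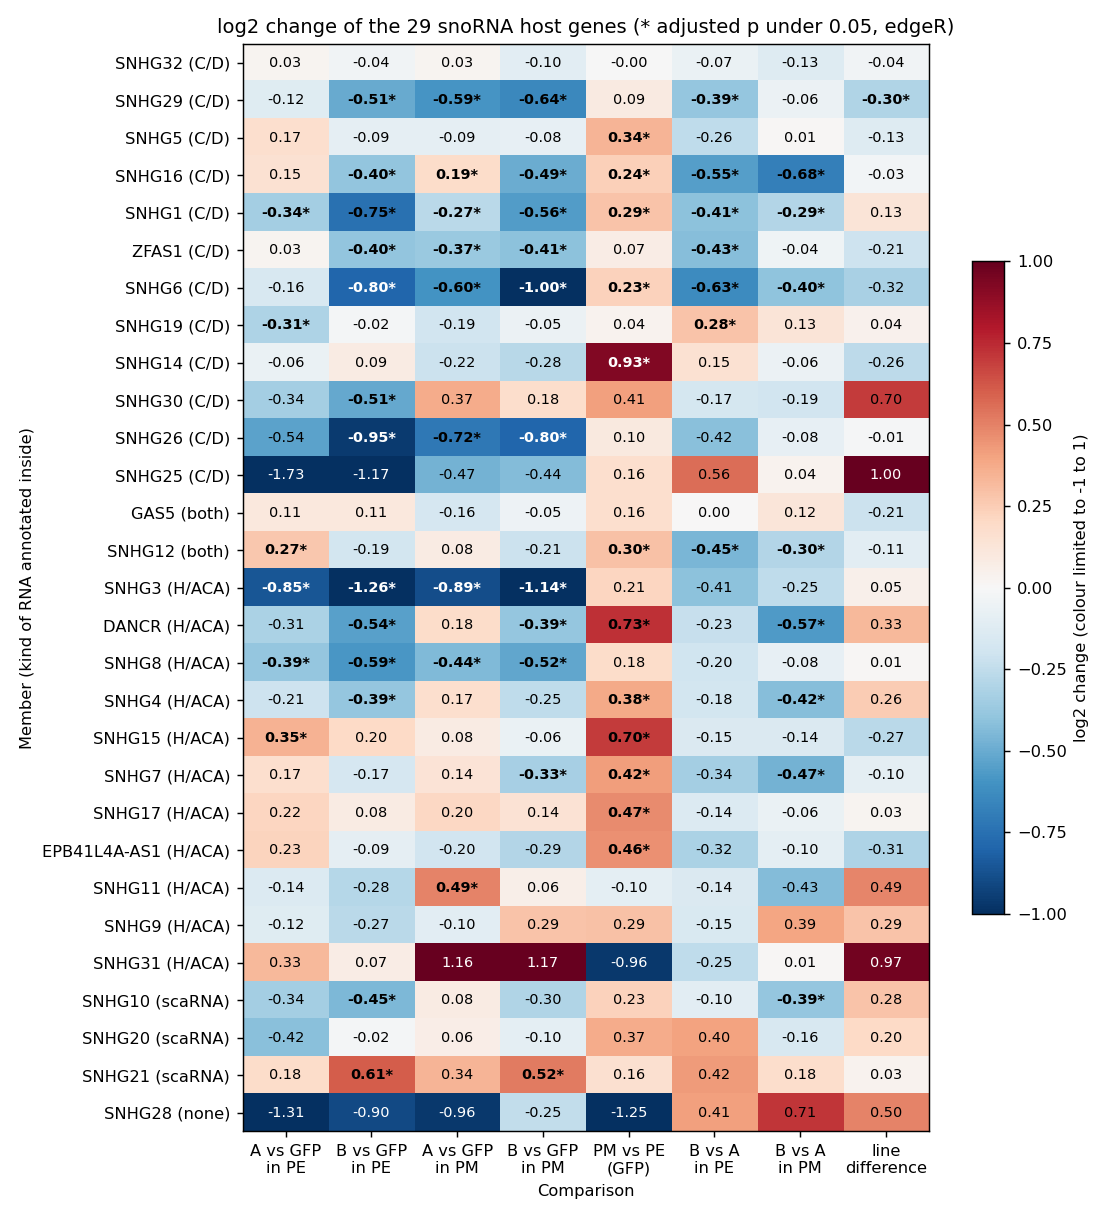
log2 change of each of the 29 members (rows, with the kind of small RNA annotated inside) in the 8 comparisons (columns), coloured from blue (lower) to red (higher) and limited to -1 to 1, with an asterisk where edgeR's adjusted p is under 0.05. SNHG1, SNHG3 and SNHG8 are blue with asterisks in all 4 knockdown columns, the PM against PE column holds 12 asterisks that are all red, and the line difference holds 1.

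Among the hosts of box H/ACA RNAs, SNHG3 showed the largest log2 decrease of the members called. It spans chr1:28505943-28510892 and carries SNORA73A and SNORA73B, which take part in the processing of ribosomal RNA. With the GFP hairpin in PE its 4 libraries read 109.7, 129, 90.3 and 112 CPM, with hairpin A 65.3, 64.4, 49.2 and 65.1 CPM, and with hairpin B 53.7, 55.8, 34.5 and 40.6 CPM. In PM they read 147, 142, 113 and 110.0 CPM with the GFP hairpin, 80.1, 69.1, 52.1 and 76.1 CPM with hairpin A, and 71.8, 60.0, 39.7 and 61.0 CPM with hairpin B. All 16 libraries of CHD1 hairpins lay below all 8 controls, and replicate 3 was the lowest of its group in 5 of the 6 groups. The log2 change was -0.85 ± 0.19 with hairpin A and -1.26 ± 0.19 with hairpin B in PE (edgeR adjusted p = 0.00298 and 4.66e-05), and -0.89 ± 0.19 and -1.14 ± 0.19 in PM (0.00127 and 0.000117).

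SNHG8, host of SNORA24, which pairs with 18S ribosomal RNA, also fell under every hairpin, by smaller and more even steps. Its libraries in PE read 55.2, 60.1, 53.2 and 61.5 CPM with the GFP hairpin, 38.2, 50.4, 46.2 and 41.2 CPM with hairpin A, and 37.8, 35.6, 39.7 and 40.1 CPM with hairpin B. In PM they read 67.6, 66.6, 63.4 and 63.8 CPM, then 45.8, 50.4, 47.2 and 49.3 CPM with hairpin A, and 40.6, 46.3, 45.0 and 50.5 CPM with hairpin B. No library of a CHD1 hairpin reached a control of either line. The log2 changes in the same order were -0.39 ± 0.08, -0.59 ± 0.08, -0.44 ± 0.08 and -0.52 ± 0.08 (edgeR adjusted p = 0.000478, 7.25e-07, 4.96e-05 and 3.80e-06). The calls of SNHG3 and SNHG8 in these 4 comparisons held under every alternative tried.

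DANCR, host of SNORA26 and named as a transcript that antagonises differentiation, fell with hairpin B in both lines. In PE its libraries read 54.7, 64.3, 52.9 and 61.1 CPM with the GFP hairpin, 46.6, 55.9, 39.1 and 46.5 CPM with hairpin A, and 46.0, 43.4, 30.8 and 40.998 CPM with hairpin B. In PM they read 106, 111, 87.7 and 84.9 CPM with the GFP hairpin, 118, 122, 105 and 97.2 CPM with hairpin A, and 78.1, 78.6, 64.5 and 76.4 CPM with hairpin B. With hairpin B all libraries of a line lay below its controls, whereas those of hairpin A overlapped them. The log2 change with hairpin B was -0.54 ± 0.12 in PE and -0.39 ± 0.12 in PM (edgeR adjusted p = 0.00105 and 0.0127), and with hairpin A it was -0.31 ± 0.12 in PE and 0.18 ± 0.12 in PM (0.0658 and 0.267). In PE the value with hairpin A passed as lower under 5 alternatives that keep all libraries, at an adjusted p of 0.0474 with DESeq2 size factors, 0.0215 with library sizes alone, 0.0300 by DESeq2's Wald test, 0.00197 without the filter and 0.000751 with the replicate block. In PM the value with hairpin A passed as higher with the replicate block (0.0394). The call in PM was lost without replicate 1 or 2 of the GFP hairpin, or without replicate 3 of hairpin B, with an adjusted p of up to 0.0695.

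EPB41L4A-AS1, host of SNORA13, passed in none of the 4 comparisons. In PE its libraries read 15.8, 10.7, 9.96 and 14.4 CPM with the GFP hairpin, 14.5, 14.7, 13.7 and 14.8 CPM with hairpin A, and 10.7, 9.94, 12.7 and 12.7 CPM with hairpin B. In PM they read 16.7, 18.3, 14.1 and 18.9 CPM, then 16.0, 15.6, 15.3 and 12.4 CPM with hairpin A, and 11.5, 15.1, 13.9 and 15.1 CPM with hairpin B. The groups of a line overlapped in each comparison with the control. The lowest adjusted p was 0.0982, for a log2 change of -0.29 ± 0.13 with hairpin B in PM.

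The other H/ACA hosts changed in single comparisons. SNHG4, host of SNORA74A, fell with hairpin B in PE (log2 change -0.39 ± 0.12, edgeR adjusted p = 0.0109), where its libraries at 19.5 to 25.6 CPM overlapped the controls at 23.1 to 34.3 CPM. The call was lost without replicate 4 of the controls or replicate 3 of hairpin B (adjusted p of up to 0.0753). SNHG7, host of SNORA17A and SNORA17B, fell with hairpin B in PM (-0.33 ± 0.13, 0.0458), and this call was lost under 9 of 14 alternatives, among them leaving out replicate 2 or 4 of the controls or 1, 2 or 3 of hairpin B (adjusted p of up to 0.172). SNHG15, host of SNORA9, rose with hairpin A in PE (0.35 ± 0.12, 0.0336), where 1 control library at 22.0 CPM lay among the knockdown libraries at 20.6 to 22.6 CPM and the other 3 lay at 12.2 to 15.0 CPM. The SNHG15 call was lost under 8 of 14 alternatives, among them leaving out replicate 1, 2 or 3 of the controls or 2, 3 or 4 of hairpin A (adjusted p of up to 0.125). It held without replicate 4 of the controls, the library at 22.0 CPM. In that setting SNHG15 also passed as higher with hairpin B in PE (log2 change 0.41, edgeR adjusted p = 0.00659). SNHG11, host of SNORA60 and SNORA71E, rose with hairpin A in PM (0.49 ± 0.17, 0.0240), from 5.27 to 5.64 CPM in the controls to 6.17 to 9.97 CPM, and the call was lost under 5 of 14 alternatives. These were leaving out replicate 4 of the controls or replicate 1 or 4 of hairpin A (adjusted p of up to 0.124), applying no filter (0.0737) and leaving out the 3 libraries that stand apart (0.138). SNHG17, which carries 4 copies of SNORA71, ran from 8.99 to 20.8 CPM over all libraries and passed in none of the 4 comparisons, and nor did SNHG9 and SNHG31, whose levels reached at most 3.33 and 1.07 CPM.

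Among the hosts of box C/D RNAs, SNHG1 fell in all 4 comparisons. It spans chr11:62851978-62855885, carries 8 box C/D snoRNAs from SNORD22 to SNORD31, and is among the hosts in which the introns rather than the exons are conserved. In PE its libraries read 101, 101, 95.9 and 101 CPM with the GFP hairpin, 82.5, 80.3, 65.4 and 85.6 CPM with hairpin A, and 66.7, 60.0, 49.7 and 60.9 CPM with hairpin B. In PM they read 128, 136, 108 and 114 CPM with the GFP hairpin, 100.2, 104, 95.5 and 104 CPM with hairpin A, and 85.0, 84.4, 69.4 and 91.7 CPM with hairpin B. Each knockdown group lay wholly below the controls of its line, and replicate 3 was the lowest library in all 6 groups. The log2 change was -0.34 ± 0.09 and -0.75 ± 0.09 with hairpins A and B in PE (edgeR adjusted p = 0.00531 and 5.90e-08), and -0.27 ± 0.09 and -0.56 ± 0.09 in PM (0.0210 and 7.11e-06). The call with hairpin A in PM was lost without replicate 1 or 2 of the GFP hairpin or replicate 3 of hairpin A, with an adjusted p of up to 0.106.

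SNHG6, host of SNORD87 and known as a transcript with a pyrimidine run at its start, fell most with hairpin B. In PE its libraries read 43.8, 49.1, 45.4 and 58.3 CPM with the GFP hairpin, 44.05, 41.8, 47.7 and 43.5 CPM with hairpin A, and 28.4, 29.9, 25.6 and 30.5 CPM with hairpin B. In PM they read 58.8, 58.1, 55.8 and 60.3 CPM, then 36.1, 42.2, 36.6 and 38.8 CPM with hairpin A, and 27.9, 26.003, 29.95 and 32.3 CPM with hairpin B. Hairpin A overlapped the controls in PE and lay wholly below them in PM, and hairpin B lay wholly below both hairpin A and the controls in each line. The log2 change was -0.16 ± 0.09 and -0.80 ± 0.09 in PE (edgeR adjusted p = 0.199 and 8.11e-09) and -0.60 ± 0.08 and -1.002 ± 0.09 in PM (1.03e-06 and 3.28e-11). With library sizes alone SNHG6 also passed as lower with hairpin A in PE (log2 change -0.23, edgeR adjusted p = 0.0393).

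SNHG29, host of SNORD49A, SNORD49B and SNORD65, and ZFAS1, host of the SNORD12 family and first described in the mammary gland, were alike in passing with every hairpin except hairpin A in PE. SNHG6 and SNHG26 showed the same pattern. SNHG29 read 272, 301, 298 and 281 CPM with the GFP hairpin in PE, 244, 267, 272 and 279 CPM with hairpin A, and 198, 175, 201 and 236 CPM with hairpin B. In PM it read 308, 312, 300.4 and 305 CPM, then 197, 203, 197 and 218 CPM with hairpin A, and 189.8, 186, 184 and 225 CPM with hairpin B. The 4 controls of PM lay above all 8 knockdown libraries there, while in PE hairpin A overlapped its controls. The log2 changes were -0.12 ± 0.07 (edgeR adjusted p = 0.280) and -0.51 ± 0.07 (1.02e-06) in PE, and -0.59 ± 0.07 (6.58e-08) and -0.64 ± 0.07 (1.03e-08) in PM.

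ZFAS1 read 56.5, 63.7, 59.0 and 62.8 CPM with the GFP hairpin in PE, 59.6, 59.5, 67.9 and 61.2 CPM with hairpin A, and 48.4, 45.7, 41.9 and 48.4 CPM with hairpin B. In PM it read 65.7, 61.8, 59.8 and 68.3 CPM, then 46.5, 48.6, 46.3 and 56.3 CPM with hairpin A, and 43.8, 43.3, 49.9 and 55.1 CPM with hairpin B. Again only hairpin A in PE overlapped the controls of its line. The log2 changes were 0.03 ± 0.08 (edgeR adjusted p = 0.864) and -0.40 ± 0.08 (0.000284) in PE, and -0.37 ± 0.08 (0.000505) and -0.41 ± 0.08 (0.000142) in PM.

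SNHG26, host of SNORD93, was a member at a low level that fell by larger steps. In PE it read 6.45, 5.21, 6.84 and 5.70 CPM with the GFP hairpin, 4.49, 4.45, 3.94 and 3.73 CPM with hairpin A, and 2.66, 2.75, 3.38 and 3.57 CPM with hairpin B. In PM it read 6.27, 6.46, 6.66 and 6.46 CPM, then 3.51, 4.03, 2.53 and 5.80 CPM with hairpin A, and 3.38, 4.09, 3.26 and 4.21 CPM with hairpin B. All 16 knockdown libraries lay below the controls of their line. The log2 changes were -0.54 ± 0.21 (edgeR adjusted p = 0.0607) and -0.95 ± 0.21 (0.000519) in PE, and -0.72 ± 0.20 (0.00607) and -0.80 ± 0.20 (0.00230) in PM.

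SNHG16, host of the SNORD1 family, moved apart under the hairpins. In PE it read 114, 132, 131 and 145 CPM with the GFP hairpin, 153, 147, 138 and 144 CPM with hairpin A, and 112, 97.0, 94.3 and 95.9 CPM with hairpin B. In PM it read 163, 157, 146 and 154 CPM, then 182, 177, 182 and 164 CPM with hairpin A, and 112, 102, 108 and 119 CPM with hairpin B. In PM hairpin A lay wholly above the controls and hairpin B wholly below them. The log2 change with hairpin A was 0.15 ± 0.07 in PE and 0.19 ± 0.07 in PM (edgeR adjusted p = 0.125 and 0.0364), and with hairpin B it was -0.40 ± 0.07 and -0.49 ± 0.07 (2.73e-05 and 6.69e-07). The rise with hairpin A in PM was lost under 6 of 14 alternatives, among them leaving out replicate 3 or 4 of the GFP hairpin or replicate 1, 2 or 3 of hairpin A, with an adjusted p of up to 0.0898.

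**Figure D2:**
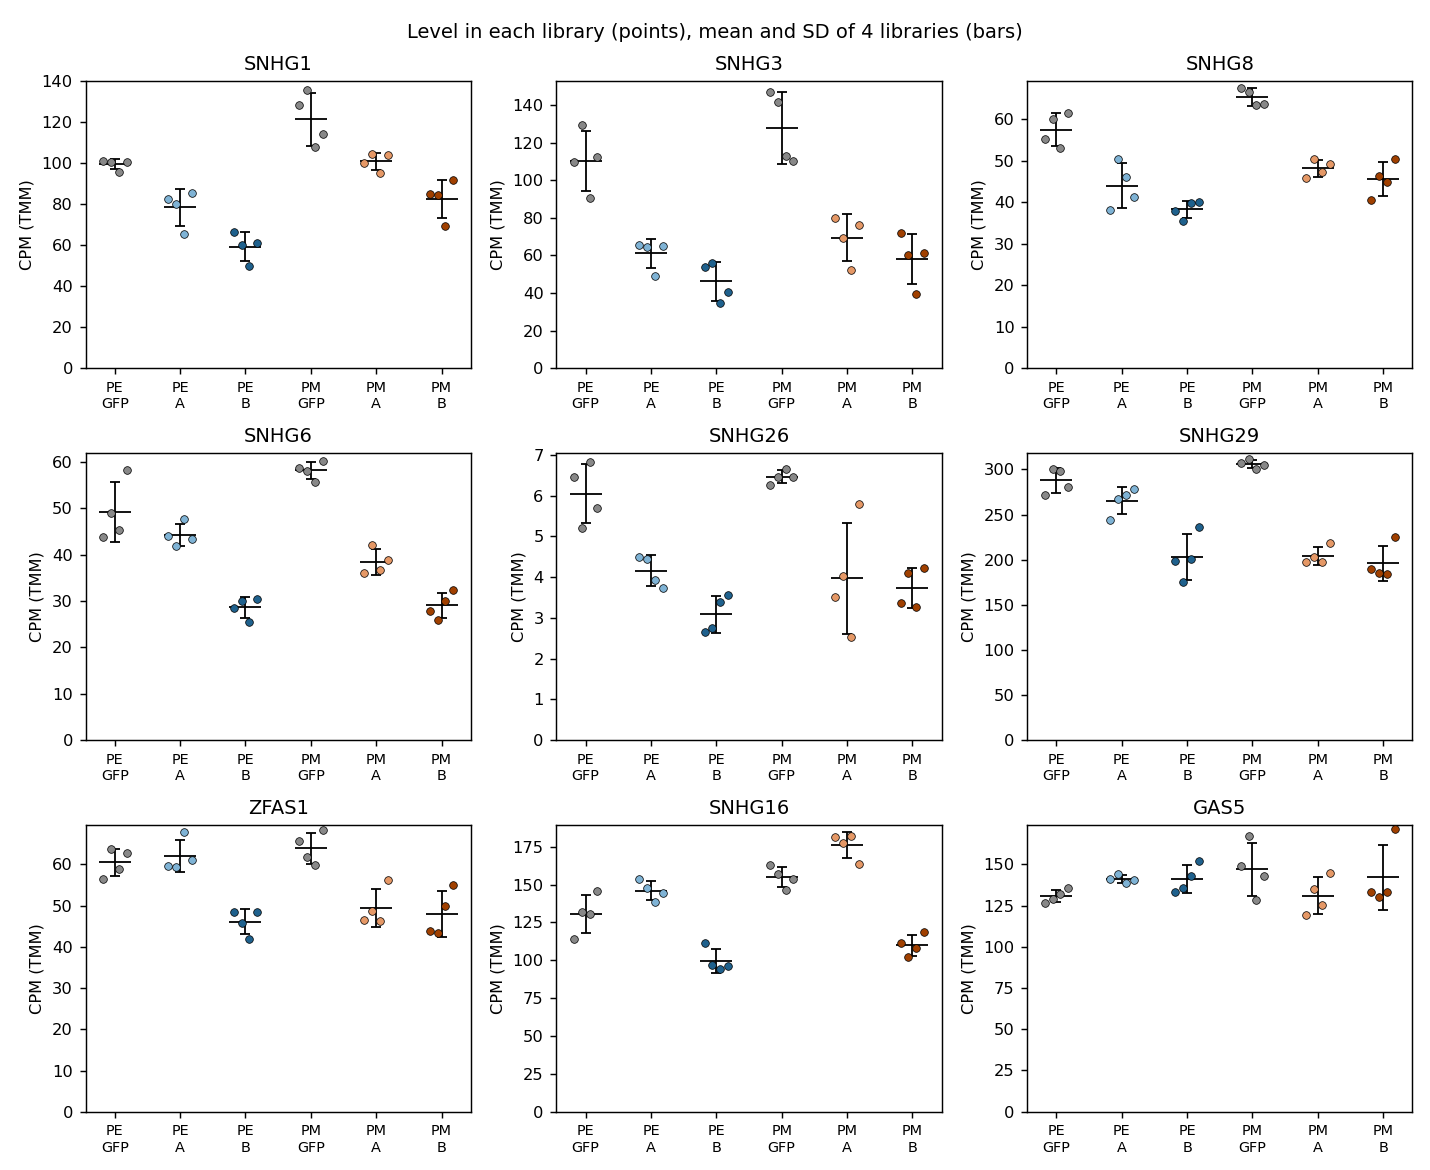
Level in CPM after TMM scaling (vertical axes from 0) of 9 members in each library, by line and hairpin on the horizontal axes, with the mean and SD of 4 libraries as bars. SNHG3, SNHG1, SNHG8 and SNHG26 lie below the controls of their line in all 4 knockdown groups, SNHG16 lies above them with hairpin A and below them with hairpin B in PM, and GAS5 stays between 119 and 171 CPM throughout.

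Of the remaining C/D hosts, SNHG19, host of SNORD60, fell with hairpin A in PE (log2 change -0.31 ± 0.10, edgeR adjusted p = 0.0271), where replicate 1 of the controls, at 30.04 CPM, lay just below the knockdown libraries at 30.1 to 35.02 CPM and the other 3 controls lay above them. That call was lost without replicate 2 or 4 of the GFP hairpin, or without replicate 1 or 4 of hairpin A. SNHG30, host of SNORD7, fell with hairpin B in PE (-0.51 ± 0.19, 0.0362) and was lost without replicate 2 or 4 of the GFP hairpin or replicate 3 of hairpin B. SNHG32 and SNHG5, at 280 to 389 and 144 to 266 CPM, passed in none of the 4 comparisons, and their approximate 95% intervals for the log2 change lay between -0.28 and 0.36. SNHG14 passed in none, with its lowest adjusted p, 0.0654, at a log2 change of -0.28 ± 0.11 with hairpin B in PM. SNHG25 had at most 0.533 CPM in a library, and its standard errors of 1.09 to 1.18 leave changes of several fold undetectable at this depth.

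GAS5, which spans chr1:173863901-173869045 and carries 10 box C/D snoRNAs and SNORA103, read 126, 129, 132 and 135 CPM with the GFP hairpin in PE, 141, 144, 138 and 140.2 CPM with hairpin A, and 133, 136, 143 and 152 CPM with hairpin B. In PM it read 149, 167, 128 and 143 CPM, then 119, 135, 125 and 145 CPM with hairpin A, and 133, 130.4, 133 and 171 CPM with hairpin B. Hairpin A in PE lay wholly above its controls, by a small step, and the other 3 knockdown groups overlapped theirs. The log2 changes were 0.11 ± 0.08, 0.11 ± 0.08, -0.16 ± 0.08 and -0.05 ± 0.08, and none passed (edgeR adjusted p = 0.406, 0.366, 0.122 and 0.737). The approximate 95% intervals lay between -0.32 and 0.27, so a fall as large as that of SNHG3 lies outside them. SNHG12, the other host of both kinds, rose with hairpin A in PE (0.27 ± 0.09, 0.0380) from 20.0 to 24.97 CPM in the controls to 25.1 to 29.1 CPM. This call was lost under 9 of 14 alternatives, among them leaving out replicate 1, 2 or 3 of the GFP hairpin or 1, 2 or 4 of hairpin A (adjusted p of up to 0.126).

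The scaRNA hosts did not move together. SNHG10 fell with hairpin B in PE (log2 change -0.45 ± 0.14, edgeR adjusted p = 0.0154), from 6.63 to 9.34 CPM in the controls to 5.31 to 6.64 CPM, and the call was lost without replicate 2 of the controls or replicate 3 of hairpin B (adjusted p of up to 0.0750). SNHG21 rose with hairpin B in both lines, by 0.61 ± 0.21 in PE and 0.52 ± 0.19 in PM (0.0251 and 0.0448). In PE it read 4.67, 3.87, 4.10 and 3.83 CPM with the GFP hairpin and 7.17, 6.05, 6.89 and 4.54 CPM with hairpin B, so replicate 4 of hairpin B overlapped the controls. The SNHG21 call was lost in PE without replicate 2, 3 or 4 of the controls or 1 or 3 of hairpin B, and in PM without replicate 1, 2 or 3 of either group (adjusted p of up to 0.0867 and 0.170). SNHG20 passed in none of the 4 comparisons, nor did SNHG28, which read 0.792 to 1.29 CPM with the GFP hairpin in PE and 0.187 to 0.662 CPM with hairpin A there without passing (adjusted p = 0.147). For SNHG20 this depends on replicate 4 of the PE controls, at 3.12 CPM where the others lay at 6.93 to 7.69 CPM. Hairpin A there read 3.89 to 5.53 CPM. Without that control SNHG20 passed as lower with hairpin A in PE (log2 change -0.68, edgeR adjusted p = 0.00565).

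Split by the annotated start, the 6 members with the pyrimidine run at it and the 19 others with a known start can be set side by side as a description. The split depends on the start taken. Within 10 bases of it 16 of the 25 members carry such a run, so the 19 include members with a run nearby. With hairpin B in PE 2 of 6 and 9 of 19 were called lower, with medians of -0.14 and -0.40. With hairpin B in PM 1 of 6 and 8 of 19 were called lower, with medians of -0.16 and -0.29. By cargo, 7 of 12 hosts of box C/D and 4 of 11 hosts of box H/ACA RNAs were lower with hairpin B in PE, and 6 of 12 and 4 of 11 in PM. Over all genes 13.2% were lower with hairpin B in PE and 14.4% in PM. Neither the difference by start nor that by cargo was tested.

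The comparison of PM with PE under the GFP hairpin asks how the hosts differ between the MYC-transformed and the non-transformed derivative. Of 29 members 12 passed (edgeR, adjusted p under 0.05), against 25.5% of all genes, and these 12 were higher in PM, against 14.1% of all genes higher and 11.4% lower. Lower in PM were 0 members by edgeR, by DESeq2's Wald test and at an unadjusted p under 0.05. The members' median log2 difference was 0.23, and that of all genes 0.02. The count was 5 when replicate 2 of the PM controls was left out and 7 when replicate 3 of the PE controls was. SNHG14, DANCR and SNHG15 passed under every alternative.

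SNHG14 showed the largest difference among the members called. Its libraries read 10.2, 8.00, 10.8 and 9.29 CPM in PE and 17.7, 17.2, 20.2 and 17.6 CPM in PM, a log2 difference of 0.93 ± 0.12 (edgeR adjusted p = 2.79e-07). DANCR, whose values are given above, differed by 0.73 ± 0.12 (2.94e-05). SNHG15 read 12.2, 15.0, 15.0 and 22.0 CPM in PE and 28.1, 28.4, 23.3 and 28.1 CPM in PM, a difference of 0.70 ± 0.12 (2.17e-05). In these 3 hosts no library of PE reached one of PM. SNHG17 read 14.7, 14.4, 8.99 and 11.2 CPM in PE and 14.6, 17.9, 13.7 and 19.9 CPM in PM, and although it passed (0.47 ± 0.15, 0.0153) the lines overlapped and the call was lost without replicate 3 of PE or replicate 2 or 4 of PM.

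The other members higher in PM were EPB41L4A-AS1 (log2 difference 0.46), SNHG7 (0.42), SNHG4 (0.38), SNHG5 (0.34), SNHG12 (0.30), SNHG1 (0.29), SNHG16 (0.24) and SNHG6 (0.23), with standard errors of 0.07 to 0.14 and edgeR adjusted p of 0.00861 to 0.0439. Of 14 alternatives each, 12 ended the call of SNHG6, 6 that of SNHG12, 4 each those of SNHG7 and EPB41L4A-AS1, 2 each those of SNHG4, SNHG1 and SNHG16, and 1 that of SNHG5. In 9 members the libraries of PM lay wholly above those of PE and in 1, SNHG28, wholly below, where 24.9% of all genes showed such a gap. SNHG28 did not pass (-1.25 ± 0.62, adjusted p = 0.149). Several members that fell with knockdown did not pass between the lines. SNHG3 was at 110.4 ± 15.9 CPM in PE and 128 ± 19.1 CPM in PM (SD, n = 4), a difference of 0.21 ± 0.19 that did not pass (0.482). SNHG29, ZFAS1, SNHG8 and SNHG26 did not pass either. Others that fell in a knockdown comparison, among them SNHG1, SNHG6 and DANCR, were called higher in PM. SNHG32 and GAS5 differed by -0.00 ± 0.08 and 0.16 ± 0.08 (0.999 and 0.133).

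**Figure D3:**
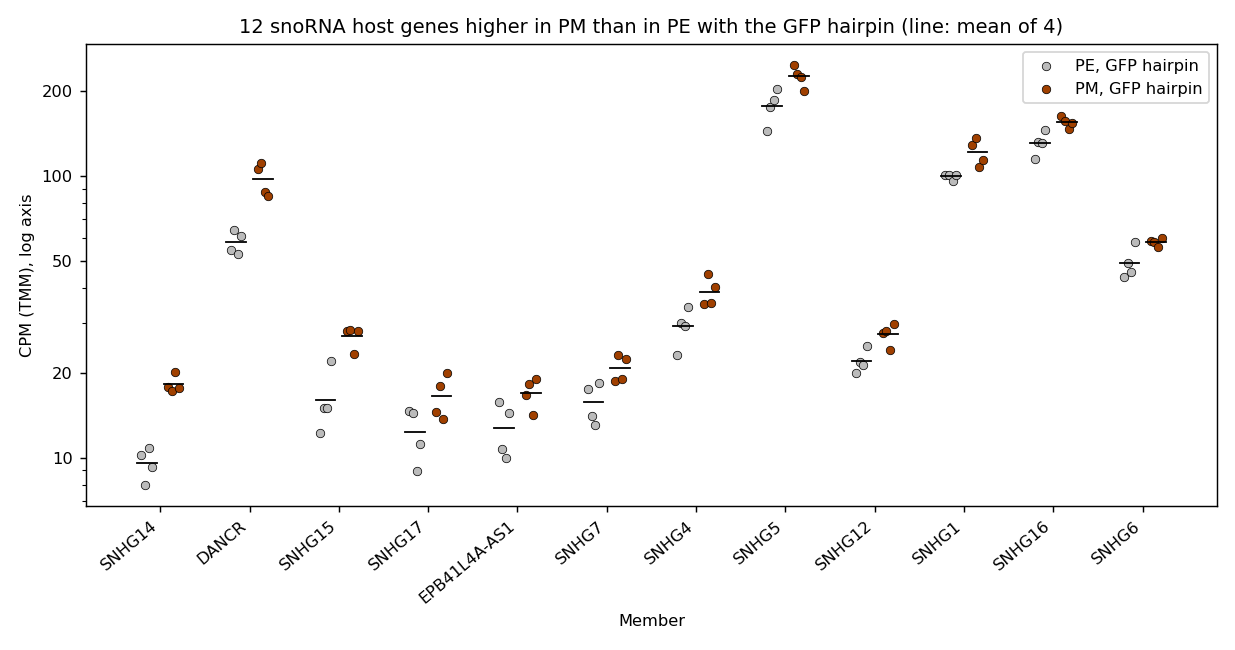
Level in CPM after TMM scaling (log axis) of the 12 members called higher in PM, with 4 libraries of PE (grey) and 4 of PM (brown) under the GFP hairpin and a line at each mean. SNHG14, DANCR and SNHG15 show PM wholly above PE, while the lines overlap in SNHG17, EPB41L4A-AS1, SNHG5, SNHG12 and SNHG6.

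Hairpin B was also compared with hairpin A directly, since both target CHD1 and left it at like levels (log2 difference -0.06 ± 0.10 in PE and -0.08 ± 0.10 in PM, edgeR adjusted p = 0.769 and 0.648). In PE 7 members passed, 1 higher and 6 lower, against 16.6% of all genes, 7.48% higher and 9.09% lower, and the libraries of the hairpins lay wholly apart in 9 members, against 20.6% of all genes. The 6 lower with hairpin B were SNHG6 (-0.63 ± 0.09), SNHG16 (-0.55 ± 0.07), SNHG12 (-0.45 ± 0.09), ZFAS1 (-0.43 ± 0.08), SNHG1 (-0.41 ± 0.09) and SNHG29 (-0.39 ± 0.07), with adjusted p from 2.65e-07 to 0.00111, and each passed under every alternative. SNHG19 was higher with hairpin B (0.28 ± 0.10, 0.0438): it read 30.1, 35.02, 33.2 and 30.7 CPM with hairpin A and 41.6, 42.2, 38.7 and 34.6 CPM with hairpin B, with 1 library overlapping. That call was lost without replicate 1, 3 or 4 of hairpin A or 1, 2 or 3 of hairpin B (adjusted p of up to 0.121). For SNHG12, the values were 26.1, 29.1, 25.1 and 26.9 CPM with hairpin A and 19.3, 18.7, 18.2 and 21.9 CPM with hairpin B, with a clear gap.

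In PM 8 members were lower with hairpin B than with hairpin A, against 26.3% of all genes in either direction and 13.5% lower, and the libraries lay wholly apart in 7 members, against 26.2% of all genes. They were SNHG16 (-0.68 ± 0.07), DANCR (-0.57 ± 0.12), SNHG7 (-0.47 ± 0.13), SNHG4 (-0.42 ± 0.11), SNHG6 (-0.40 ± 0.09), SNHG10 (-0.39 ± 0.13), SNHG12 (-0.30 ± 0.09) and SNHG1 (-0.29 ± 0.09), with edgeR adjusted p from 1.69e-09 to 0.0302. SNHG7 read 21.9, 21.1, 24.6 and 23.9 CPM with hairpin A and 15.4, 14.0, 14.7 and 22.0 CPM with hairpin B, so that replicate 4 of hairpin B alone reached hairpin A. Without the 3 libraries that stand apart in depth or genes detected, 3 of these calls were left, those of SNHG16, DANCR and SNHG6. The calls of SNHG1 and SNHG12 were also lost without replicate 3 of hairpin B alone, and that of SNHG10 under 9 of 14 alternatives. In PM SNHG29, ZFAS1, SNHG8 and SNHG26 differed between the hairpins by -0.06 ± 0.07, -0.04 ± 0.08, -0.08 ± 0.08 and -0.08 ± 0.20, none past the threshold. MYC itself moved with this comparison: it averaged 564 ± 28.2 CPM with hairpin A and 392 ± 12.3 CPM with hairpin B in PM (SD, n = 4), a log2 difference of -0.52 ± 0.06, and 258 ± 8.30 and 275 ± 24.0 CPM in PE. Its part in the hosts' differences was not tested.

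The difference between the lines in the mean effect of both hairpins passed for 1 member, against 3.93% of all genes, 1.77% higher and 2.16% lower. That member was SNHG29, whose mean change was lower in PM than in PE by 0.30 ± 0.09 on the log2 scale (difference -0.30, edgeR adjusted p = 0.0409). The call was lost under 18 of 30 alternatives, at an adjusted p of up to 0.0879, among them every setting that left out a control library of PM. SNHG30 (0.70 ± 0.22, 0.0661) and SNHG6 (-0.32 ± 0.11, 0.0791) came next and did not pass. With the replicate block both passed (0.0241 and 0.0300), as did DANCR (0.33 ± 0.14 without the block, 0.0103 with it). SNHG30 also passed with library sizes alone (0.0401), by DESeq2's Wald test (0.0331) and without the filter (0.0179). It passed too without replicate 3 of the controls, 2 of hairpin A or 4 of hairpin B in PE. Without replicate 4 of hairpin A in PM SNHG30 passed as well (0.0486, the highest of these). DANCR passed without the filter (0.0320). When replicate 4 of the PE controls was left out, SNHG6 (0.0143) and SNHG15 (-0.47, edgeR adjusted p = 0.0320) passed. For SNHG3, SNHG8 and SNHG1 the differences were 0.05 ± 0.23, 0.01 ± 0.10 and 0.13 ± 0.11. In the main fit ZFAS1 and SNHG6 passed with hairpin A in PM and not in PE, and the difference between the lines for hairpin A by itself was not tested.

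The snoRNAs themselves have rows of their own. As poly(A) selection leaves most mature snoRNAs behind, these rows are thin: all those inside members summed to 80.1 to 96.6 CPM in the controls of PE and 53.9 to 76.0 CPM with hairpin B there, and to 92.7 to 116 CPM and 61.7 to 79.8 CPM in PM. Of 145 rows 51 could be tested. Called lower were 2 with hairpin A and 6 with hairpin B in PE, and 2 and 3 in PM. Of all genes 9.33%, 13.2%, 14.3% and 14.4% were lower in these comparisons, each a larger share than among the snoRNA rows. The median log2 change of the 51 was -0.00, -0.41, -0.24 and -0.50. Whether a count on such a row comes from a mature snoRNA, from a precursor or from a retained intron cannot be told apart in these files.

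SNORA73B, inside SNHG3, fell in all 4 comparisons, as its host did. With the GFP hairpin its libraries read 5.34, 5.94, 5.18 and 6.17 CPM in PE and 6.02, 6.87, 4.43 and 7.32 CPM in PM. With hairpin A they read 1.94, 3.75, 2.29 and 3.09 CPM in PE and 4.65, 2.63, 2.44 and 4.04 CPM in PM, and with hairpin B 2.58, 1.51, 1.19 and 1.30 CPM in PE and 2.40, 2.03, 1.24 and 1.63 CPM in PM. Only hairpin A in PM overlapped the controls, by 1 library. The log2 changes were -1.04 ± 0.27, -1.80 ± 0.28, -0.85 ± 0.26 and -1.75 ± 0.27 in the order A and B in PE, A and B in PM (edgeR adjusted p = 0.00517, 5.34e-06, 0.0138 and 4.66e-06).

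SNORD104 likewise fell in all 4 comparisons. It lies inside SNHG25, and its row held 9881 counts where that of SNHG25 held 247. Its group means ± SD (n = 4) in PE were 10.4 ± 2.62 CPM in the controls, 7.89 ± 1.15 for hairpin A and 6.02 ± 1.05 for hairpin B, and 12.9 ± 1.35, 8.43 ± 1.16 and 6.71 ± 0.350 CPM in PM. In PM all knockdown libraries lay below the controls, and in PE the control of lowest depth, at 6.90 CPM, lay among them. The log2 changes were -0.45 ± 0.16, -0.85 ± 0.16, -0.61 ± 0.16 and -0.94 ± 0.16 (edgeR adjusted p = 0.0470, 0.000124, 0.00286 and 1.74e-05).

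With hairpin B in PE the other rows called lower were SNORD12B (inside ZFAS1), SNORD26 (SNHG1), SNORA26 (DANCR) and SNORD47 (GAS5), and in PM SNORD31 (SNHG1). SNORD12B read 5.34 CPM in the PE control of lowest depth and 0.899 to 1.76 CPM in the other controls. With hairpin B there it read 0.527 to 1.26 CPM, which overlapped the controls. SNORD47 fell by 0.80 ± 0.29 on the log2 scale (edgeR adjusted p = 0.0361) where the exon-bearing row of GAS5 read 0.11 ± 0.08 without passing; another C/D RNA of GAS5, SNORD80, read -0.24 ± 0.18 (0.354). Between the lines SNORA9, inside SNHG15, was higher in PM by 1.28 ± 0.33 (0.00301), as its host was. SNORD79 of GAS5 was higher with hairpin B than with hairpin A in PM (1.46 ± 0.53, 0.0375), at 0.0326 to 1.84 CPM per library.

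**Figure D4:**
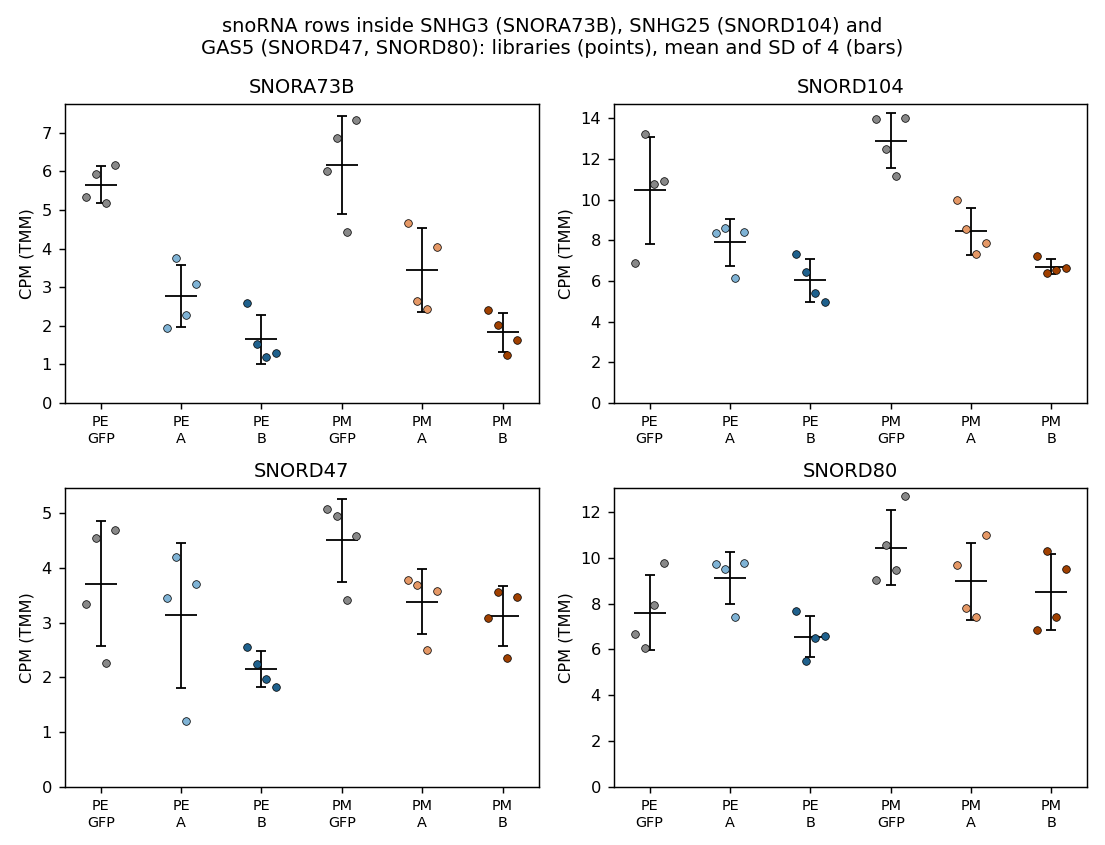
Level in CPM after TMM scaling (vertical axes from 0) of 4 snoRNA rows in each library, by line and hairpin, with the mean and SD of 4 libraries as bars. SNORA73B and SNORD104 have means that step down from control to hairpin A to hairpin B in both lines, while SNORD47 and SNORD80 inside GAS5 overlap between most groups.

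Some members overlap other genes in the annotation, and how the authors' counting used strand is not given in the sources used here. Reads of such pairs may be shared or lost. SNHG3 overlaps RCC1 on the same strand. RCC1, the nucleotide exchange factor of Ran, fell in PE by 0.21 ± 0.07 with hairpin A and by 0.39 ± 0.07 with hairpin B (edgeR adjusted p = 0.0346 and 9.19e-05). Its log2 change in PM was -0.04 ± 0.07 with hairpin A, which did not pass, and -0.37 ± 0.07 with hairpin B (0.764 and 0.000123). It was higher in PM than in PE by 0.54 ± 0.07 (5.01e-07), where SNHG3 did not pass. GAS5 overlaps ZBTB37 on the opposite strand, and ZBTB37 rose with hairpin B by 0.91 ± 0.14 in PE and 1.05 ± 0.13 in PM (3.70e-06 and 1.58e-07), from 7.46 to 14.0 CPM in the controls of both lines to 17.0 to 21.9 CPM.

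EPB41L4A-AS1 runs antisense to the protein-coding EPB41L4A, which fell with both hairpins in PE (-0.54 ± 0.18 and -1.40 ± 0.18, edgeR adjusted p = 0.0252 and 1.78e-07) and with hairpin B in PM (-0.95 ± 0.17, 4.44e-05) while EPB41L4A-AS1 did not pass. SNHG20 overlaps SEC14L1 on the same strand, which rose in all 4 comparisons by 0.24 to 0.79, and SNHG4 with MATR3, which was lower with hairpin B in PM (-0.16 ± 0.06, 0.0358). SNHG31 lies opposite ABCA12, which rose by 2.54 ± 0.36 and 2.79 ± 0.37 with hairpins A and B in PM (2.25e-05 and 8.15e-06), where SNHG31 read 1.16 ± 0.55 and 1.17 ± 0.54 without passing. SNHG12 lies opposite TRNAU1AP, which fell in PM by 0.71 ± 0.11 with hairpin A and by 0.29 ± 0.11 with hairpin B (4.75e-06 and 0.0444). Opposite SNHG14, UBE3A was higher in PM than in PE by 0.20 ± 0.07 (0.0203), and IPW, a transcript inside SNHG14 on its strand, by 1.15 ± 0.19 (1.93e-05).

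The proteins that bind snoRNAs gave a second view of the pathway. All 8 on the list of core proteins of box C/D and H/ACA particles were higher in PM than in PE, among them FBL, the methyltransferase fibrillarin (0.66), NOP56 (0.59), GAR1 (0.59) and NOP58 (0.53), with a median of 0.50 against 0.02 over all genes. Under knockdown the count was 1 higher (NOP10, 0.35) with hairpin A in PE and 3 lower with hairpin B there, NOP56 (-0.32), NOP58 (-0.27) and DKC1 (-0.27). In PM it was 4 higher with hairpin A, among them SNU13 (0.40), and 1 higher (FBL, 0.23) and 3 lower with hairpin B, with NOP56 at -0.40. Of 15 assembly factors 11 were higher in PM than in PE, among them NUFIP1 (0.68) and NOLC1 (0.66). Over all genes 14.1% were higher in PM than in PE and 11.4% lower. With hairpin A 2 assembly factors rose and 3 fell in PE and 6 rose in PM. With hairpin B 2 rose and 3 fell in PE and 1 rose and 4 fell in PM. Of all genes 10.9% were higher and 9.33% lower with hairpin A in PE, and 13.6% and 13.2% with hairpin B there. In PM the shares were 13.4% and 14.3% with hairpin A, and 13.6% and 14.4% with hairpin B. A count near these shares, as for the 2 assembly factors that rose with each hairpin in PE, is no result about the list. TCOF1 (treacle) and NOLC1, partners in the nucleolus, fell with hairpin B by 0.85 and 0.62 in PE and by 0.58 and 0.76 in PM, and NOPCHAP1 rose with it by 0.31 and 0.52. The genes of these lists passed at edgeR's adjusted p of 0.05.

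Of 18 factors of nonsense-mediated decay, the pathway that degrades the spliced exons of many hosts, 3 were higher and 2 lower with hairpin A in PE, 3 and 9 with hairpin B in PE, 7 and 1 with hairpin A in PM, and 3 and 7 with hairpin B in PM. Of all genes 10.9% were higher and 9.33% lower in the first of these comparisons, 13.6% and 13.2% in the second, 13.4% and 14.3% in the third, and 13.6% and 14.4% in the last. CASC3, of the exon junction complex, was higher in all 4, by 0.54 to 0.63 on the log2 scale. PNRC2, an adaptor to decapping, was lower with hairpin B (log2 change -0.79 in PE and -0.55 in PM). Between the lines 7 were higher in PM and 1 lower, against 14.1% and 11.4% of all genes.

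Protein-coding genes that also carry snoRNAs in their introns gave calls on both sides under knockdown. Of 47 tested, 16 were higher and 3 lower with hairpin A in PE, 14 and 10 with hairpin B in PE, 12 and 7 with hairpin A in PM, and 12 and 16 with hairpin B in PM, with medians between -0.07 and 0.08. The 7 lower with hairpin A in PM, for one, are near the 14.3% of all genes, and the shares of all genes are those given for the decay factors. The difference from the members was not tested. RPL10 showed the largest decreases among them with hairpin B (-0.89 in PE and -0.98 in PM), RPSA fell with it by 0.53 and 0.50, and EEF2 rose with it in PE by 0.45. NCL (nucleolin) fell by 0.70 with hairpin A in each line. Between the lines 30 were higher in PM and 1 lower, against 14.1% and 11.4% of all genes. NCL (0.62), NOP56 (0.59) and WDR43 (0.58) came first, and the median was 0.23.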

How the data were processed

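RNA of MCF10A derivatives was sequenced by the submitters in 24 libraries after poly(A) selection with a directional kit. The deposited values are raw counts per gene, made by the authors with FastQC, Trim Galore 0.4.0, HISAT2 2.2.1 on GRCh38 and featureCounts, per the submitters' processing notes. Neither the annotation release nor the strand or multi-mapping setting is given in the sources used here. Groups and replicate numbers come from the labels, and no replicate pair agreed within sampling noise (chi-square per degree of freedom 5.83 to 43.7).

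All libraries entered 1 fit with a mean for each group in edgeR 4.0.16 (R 4.3.3): TMM, filterByExpr, robust quasi-likelihood test, two-sided, Benjamini-Hochberg within each contrast, threshold 0.05. Standard errors were approximated from the log2 change and the F statistic. The median biological coefficient of variation was 18.96%. The alternatives tried were scaling by DESeq2 size factors or by library sizes alone, the Wald test of DESeq2 1.42.0, no filter, the replicate number as a block and leaving out each library. Leaving out 3 libraries together was added after seeing the data. The procedure was tested on simulated data.

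Members and lists (snoRNP proteins, assembly factors, decay factors, protein-coding hosts, cell type markers) were chosen with earlier results of these data known. Values per library are given for members called under both hairpins, the largest changes of the other comparisons, GAS5, SNHG1, ZFAS1, DANCR and EPB41L4A-AS1. SNHG21 was shown so after its values were seen. From the other lists up to 4 called genes per comparison are named. snoRNAs inside members and the starts come from RefSeq annotation of GRCh38.p14, with 29 of 29 members matched. No reads were realigned.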

Additional observations from a re-analysis of the deposited data

Results flagged for a closer look

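Each member in each group of 4 libraries was examined for a single library far from the other 3, 174 groups in all, and 16 stood out; chance alone marks about 1 in 20. Of the 16, 7 were in a replicate 3 and 7 in a replicate 4. In replicate 4 of hairpin B in PM SNHG29 (225 CPM), SNHG5 (266 CPM), GAS5 (171 CPM) and SNHG7 (22.0 CPM) each stood above the other libraries of the group. Replicate 3 of that group stood below them for DANCR (64.5 CPM) and SNHG15 (22.0 CPM), and above them for SNHG20 (9.27 CPM) and SNHG25 (0.472 CPM). It is also the library with the most genes detected.

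Replicate 3 was the low one for SNHG1 with the GFP hairpin in PE (95.9 CPM), for SNHG3 with hairpin A in PE (49.2 CPM) and for SNHG15 with the GFP hairpin in PM (23.3 CPM). SNHG1 was lowest in replicate 3 in all 6 groups and DANCR in 4 of 6. In PE the other libraries that stood apart were replicate 1 of hairpin B for SNHG16 (112 CPM), replicate 2 of hairpin A for SNHG15 (22.6 CPM), replicate 4 of hairpin A for SNHG10 (7.57 CPM) and replicate 4 of the GFP hairpin for SNHG20 (3.12 CPM). In PM it was replicate 4 of the GFP hairpin for SNHG21 (6.08 CPM).

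SNHG29 was the member whose mean change under both hairpins differed between the lines by the test of that difference, with a log2 value of -0.30.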

How the results depend on the processing

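Of 67 calls of a member in a comparison, 38 held under every alternative and 29 were lost under at least 1, and 0 changed sign. Members called kept within 1.5 times the reported count under other scalings, DESeq2's test, no filter and the replicate block, except for the difference between the lines: it gave 0 members with DESeq2 size factors, 2 by DESeq2's Wald test, 3 without the filter and 4 with the replicate block. Members lower under both hairpins in PE numbered 5 by the Wald test and 8 with library sizes alone. Without the 3 libraries that stand apart, hairpin B against A in PM gave 3 members and the difference between the lines 0. Leaving out 1 library at a time gave 3 to 8 members for hairpin A and 9 to 13 for hairpin B in PE, 7 to 10 and 8 to 13 in PM, 5 to 12 for PM against PE, 6 to 7 and 6 to 9 for hairpin B against A in PE and PM, 0 to 2 for the difference between the lines, and 3 to 4 in PE and 6 to 7 in PM under both hairpins. The cause of these moves was not tested. Replicate numbers were not treated as pairs in the main fit, as the labels do not say that they mark a shared day or batch. The library numbers in the submitters' column names do run in blocks by replicate number, without word of what a block stands for. Correlations of same-numbered libraries ran from -0.04 to 0.12, yet in 7 of 15 pairs of groups all 4 libraries correlated best with their own number. Whether same-numbered libraries share a batch was not tested. With the replicate block, genes called with hairpin A in PE went from 4208 to 5013 over all genes. With the replicate block the counts in the 4 knockdown comparisons were 7, 13, 10 and 13, PM against PE gave 12, and hairpin B against A gave 10 and 9. Depth limits SNHG25, SNHG28 and SNHG31, none above 1.29 CPM, and most snoRNA rows.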
